A study of Homo sapiens with 6 samples.

Results

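The genes described here are 8 genes of cholesterol synthesis and its control, HMGCS1, IDI1, FDFT1, SQLE, LSS, DHCR7, SREBF2 and INSIG1. They were chosen by name, as the loci of the deposited pooled table whose gene column held one of them, which gave 8 loci of 117001, and their expression in each library was taken from the deposited transcript assemblies, where they are 8 of 24166 genes. 6 of the 8 encode enzymes of sterol synthesis and the remaining ones, SREBF2 and INSIG1, encode regulators of the pathway. The working name of the set also mentions the uptake of low density lipoprotein (LDL), but none of the 8 encodes a receptor for LDL.

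Cholesterol is built from acetyl-CoA through mevalonate, isoprenoids and squalene, and the enzymes of this route are controlled together by feedback. The transcription factor SREBP-2, the product of SREBF2, is held in the membrane of the endoplasmic reticulum with its escort SCAP, and INSIG proteins retain this complex there when sterols are plentiful. When sterols are scarce, SREBP-2 is cut in the Golgi and its released domain enters the nucleus, where it binds sterol response elements near genes for sterol synthesis and LDL uptake.

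HEK293 cells, an established line from human embryonic kidney, were grown at 37°C and left untreated (Control, 3 libraries) or heated in a tube for 30 minutes in a bath held at 45°C (HeatShock, 3 libraries). Total RNA depleted of ribosomal RNA was sequenced. The labels name no other agent in either group, and the comparison asks which transcripts change shortly after heat shock. The labels do not say whether the replicates came from separate cultures, so p-values measure the spread between these libraries, which may be technical.

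The 6 libraries differed in ways their groups do not explain. Relative depth, taken from the ratio of deposited coverage to FPKM, ran from 1 to 2.03. The number of assembled transcripts without a strand was 141632, 194489 and 45600 in Control 1, 2 and 3 and 17304, 30334 and 151889 in HeatShock 1, 2 and 3, so HeatShock 3 lay with Control 1 and Control 2 on this measure. All 6 markers of the line were above 0 in every library: VIM at 85.3 to 929 FPKM, KRT18 at 7.86 to 34.5, KRT8 at 1.77 to 16.6, NEFL at 2.45 to 13.0, NEFM at 1.44 to 8.92 and PAX2, the lowest, at 0.320 to 4.26 FPKM. Of the markers of other cell types, COL1A1 (fibroblast) was at 3.23 to 4.16 FPKM and APOA1 (hepatocyte) at 0.398 to 2.02 FPKM, while ALB, COL3A1, DCN, PTPRC, HBB and CD3E were at most 0.344 FPKM. The heat shock gene DNAJB1, a co-chaperone of HSP70, was at 7.32, 4.84 and 9.18 FPKM in the control libraries and at 121, 116 and 34.0 FPKM in the heat shock libraries, so every heat shock library, HeatShock 3 included, lay above every control library for this gene.

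The stretches before the starts of the member genes are shown first, because binding of SREBP-2 and of general factors at such stretches is the textbook route by which these genes are controlled. RefSeq promoter sequences (build GRCh38.p14) were matched for 6 of the 8 members, HMGCS1, IDI1, INSIG1, LSS, SREBF2 and DHCR7, in 10 entries. Each of the following is 100 bases from the 250 bases before a start, written 5′ to 3′ on the strand of the gene, with every sterol response element (TCACNCCAC) and CCAAT box (CCAAT, or ATTGG on the other strand) in capitals. None overlaps an annotated exon of its gene in GRCh37, the build of the deposited files, where each was found once without a mismatch.
HMGCS1, chr5:43313515-43313614, minus strand: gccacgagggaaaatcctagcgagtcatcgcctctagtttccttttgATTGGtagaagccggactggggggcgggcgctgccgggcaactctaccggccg
IDI1, chr10:1049184-1049283, minus strand: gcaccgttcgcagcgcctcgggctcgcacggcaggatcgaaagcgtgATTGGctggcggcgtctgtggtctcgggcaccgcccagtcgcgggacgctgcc
LSS, chr21:46228872-46228971, minus strand: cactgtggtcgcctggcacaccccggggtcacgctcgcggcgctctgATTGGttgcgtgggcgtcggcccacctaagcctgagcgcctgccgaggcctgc
DHCR7, chr11:71448436-71448535, minus strand: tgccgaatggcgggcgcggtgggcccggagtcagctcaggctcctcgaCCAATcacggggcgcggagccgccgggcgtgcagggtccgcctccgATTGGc
SREBF2, chr22:41832927-41833026, plus strand: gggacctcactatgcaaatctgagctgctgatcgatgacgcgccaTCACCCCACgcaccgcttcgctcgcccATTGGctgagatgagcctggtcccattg
INSIG1, chr7:155297661-155297760, plus strand: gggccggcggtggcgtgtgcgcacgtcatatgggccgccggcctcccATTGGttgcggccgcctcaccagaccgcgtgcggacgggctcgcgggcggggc

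The motifs were searched on both strands of the 250 bases before each start, and they do not overlap each other in the stretches shown. The sterol response element was in 1 of the 10 member entries, that of SREBF2, where it began 133 bases before the start, and in 0.883% of the 35116 promoters of the table. A CCAAT box, the site of the factor NF-Y, was in 7 of the 10 entries and in at least 1 entry of each of the 6 genes, against 32% of all promoters. The Sp1 letters GGGCGG were in 9 of the 10 entries and in 42.6% of all promoters. The heat shock element searched, GAANNTTC, was in 0 of the 10 entries and in 5.78% of all promoters. A match is a description of the letters in this window only.

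HMGCS1 encodes the cytosolic HMG-CoA synthase, an early enzyme of the route. It lies on chromosome 5 (hg19 43287572 to 43313614, minus strand), and its longest annotated transcript has 11 exons and 5450 nt. Its expression was 7.001, 4.003 and 9.84 FPKM in Control 1, 2 and 3 and 19.3, 25.9 and 4.02 FPKM in HeatShock 1, 2 and 3. HeatShock 1 and HeatShock 2 lay above every control, while HeatShock 3 lay beside Control 2, so the groups overlapped. On the log2(FPKM + 1) scale the difference was 0.89 (SE 0.76, 95% confidence interval −0.76 to 2.53, limma adjusted p = 0.709). In bulk RNA of this kind, fewer cells with a transcript and less of it per cell cannot be told apart.

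IDI1 encodes isopentenyl diphosphate isomerase, which makes the second building block of the isoprenoid chain. It lies on chromosome 10 (hg19 1085964 to 1095061, minus strand). The control libraries held 6.31, 3.29 and 7.55 FPKM and the heat shock libraries 14.2, 34.0 and 3.36 FPKM. As for HMGCS1, HeatShock 1 and HeatShock 2 were high, and HeatShock 3 was at the level of the lowest control. The log2 difference was 1.04 (SE 0.78, limma adjusted p = 0.709).

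FDFT1 encodes squalene synthase, the first enzyme committed to sterols, and lies on chromosome 8 (hg19 11660190 to 11696818, plus strand). Its values were 24.1, 6.92 and 23.6 FPKM in the control libraries and 34.3, 37.5 and 6.82 FPKM in the heat shock libraries. Control 2 and HeatShock 3 were low by about the same amount, and the remaining 4 libraries were at 23.6 to 37.5 FPKM. The log2 difference was 0.37 (SE 0.88, limma adjusted p = 0.819).

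SQLE encodes squalene epoxidase, a rate-limiting, oxygen-dependent enzyme of the late route, and lies on chromosome 8 (hg19 126010720 to 126034525, plus strand, 11 exons). Its values were 5.56, 4.78 and 4.87 FPKM in the control libraries and 12.2, 12.6 and 12.6 FPKM in the heat shock libraries. SQLE was the member whose groups did not overlap, 1 of 8, and 3.75% of all 13074 tested genes had every heat shock library above every control. Its log2 difference of 1.16 (SE 0.59, limma adjusted p = 0.709, unadjusted p = 0.0725) had a 95% confidence interval of −0.12 to 2.43. The value of HeatShock 3 came from a different kind of transcript than those of HeatShock 1 and HeatShock 2. In HeatShock 3 the annotated transcript of 2989 nt was at 1.30 FPKM, and an assembled single-exon transcript of 595 nt at the 3′ end was at 11.3 FPKM (interval given by Cufflinks 8.34 to 14.3), whereas in HeatShock 1 and HeatShock 2 all of the value was in the annotated transcript. In Control 2 too the annotated transcript was low, at 1.04 FPKM, and a shorter assembled transcript of 1345 nt was at 3.74 FPKM. Control 1 and Control 3 had the annotated transcript alone. When FPKM was multiplied by transcript length and divided by the longest annotated length, so that a short transcript counts for its length, SQLE was at 5.56, 2.73 and 4.87 in the control libraries and 12.2, 12.6 and 3.56 in the heat shock libraries, and the groups overlapped.

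LSS encodes lanosterol synthase, which closes the sterol rings, and lies on chromosome 21 (hg19 47608360 to 47648738, minus strand, 21 exons). Its values were 5.56, 2.32 and 4.53 FPKM in the control libraries and 4.39, 7.90 and 3.79 FPKM in the heat shock libraries. Only HeatShock 2 lay above every control, and the log2 difference of 0.31 (SE 0.54, limma adjusted p = 0.764) was the smallest of the 8. DHCR7 encodes 7-dehydrocholesterol reductase, the last enzyme of one branch of the route, and lies on chromosome 11 (hg19 71145457 to 71159477, minus strand). It was at 12.9, 6.27 and 10.6 FPKM in the control libraries and 26.2, 21.5 and 8.81 FPKM in the heat shock libraries. HeatShock 1 and HeatShock 2 lay above every control and HeatShock 3 between Control 2 and Control 3, and the log2 difference was 0.79 (SE 0.73, limma adjusted p = 0.709).

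SREBF2, the gene for SREBP-2, lies on chromosome 22 (hg19 42229106 to 42302375, plus strand, 19 exons) and hosts the microRNA gene MIR33A in an intron. Its values were 3.46, 3.54 and 8.41 FPKM in the control libraries and 9.42, 22.2 and 7.06 FPKM in the heat shock libraries. Control 3 lay above HeatShock 3, so the groups overlapped, and the log2 difference was 1.12 (SE 0.66, limma adjusted p = 0.709). In HeatShock 3 the transcripts had been grouped with those of MIR33A, and the annotated transcript alone was at 1.03 FPKM there. With transcripts grouped with several genes left out, the log2 difference of SREBF2 was 0.45 (SE 0.81, limma adjusted p = 0.769), and with annotated transcripts alone it was −0.20 (SE 0.76, limma adjusted p = 0.898).

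INSIG1, which encodes the sterol-sensing anchor of the SCAP complex and is itself a target of SREBP, lies on chromosome 7 (hg19 155089486 to 155101945, plus strand). Its values were 22.3, 12.4 and 22.8 FPKM in the control libraries and 39.1, 57.8 and 10.9 FPKM in the heat shock libraries. The lowest and the highest library were both of the heat shock group, and the log2 difference was 0.64 (SE 0.86, limma adjusted p = 0.719). With annotated transcripts alone, INSIG1 was at 3.82, 1.49 and 0 FPKM in the control libraries and 32.5, 32.9 and 2.13 FPKM in the heat shock libraries, and the log2 difference was 2.74 (SE 1.03, unadjusted p = 0.0144, limma adjusted p = 0.801).

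**Figure D1:**
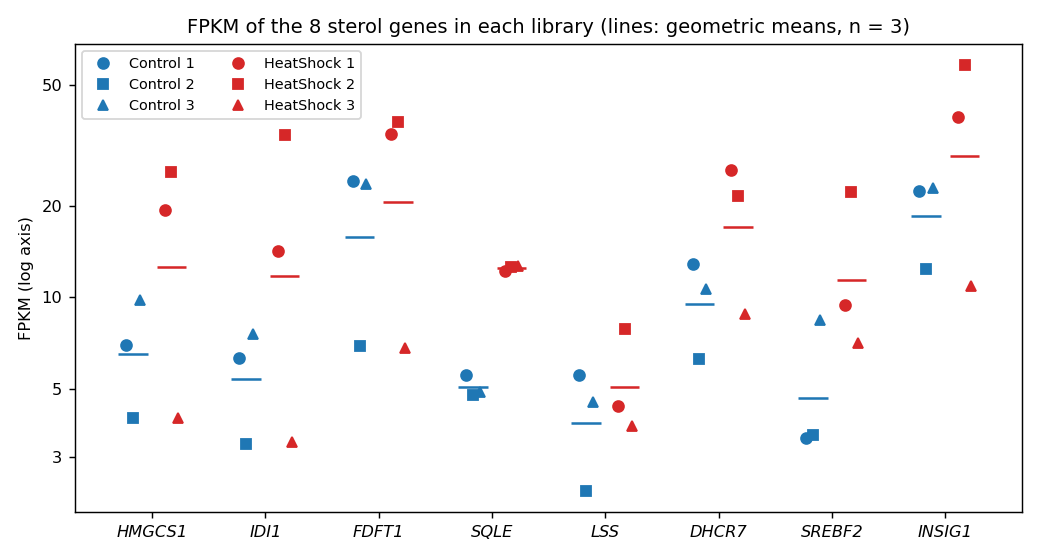
FPKM on a log axis of the 8 genes in each of the 6 libraries, with Control in blue and HeatShock in red, 1 marker shape per replicate number and lines at the geometric mean of each group (n = 3). HeatShock 3 (red triangle) lay within or below the range of the controls for every gene except SQLE, where it was at 12.6 FPKM.

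Across the 8 genes, 0 were called at an adjusted p under 0.05 and more than 2-fold, and 0 were past an unadjusted p of 0.05. Of all 13074 genes tested with limma, 0.0229% were called, which is 2 higher and 1 lower, and 3.7% were past an unadjusted p of 0.05. All 8 differences were positive, between 0.31 and 1.16, with a median of 0.84, and the median over all tested genes was 0.45. Over abundant genes, those averaging 10 FPKM or more, it was 0.82, and the 5 members among them had a median of 0.79. The sign depended on the scaling: after division by the common factor described below, 4 of the 8 differences were positive, and with transcript length taken in as well 3 of the 8 were.

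The size of these differences depended on single libraries, in both directions. Without HeatShock 2 the median of the members fell to 0.38, against 0.23 over all genes, and 0 members were past an unadjusted limma p of 0.05. Without HeatShock 3, the differences of HMGCS1 (1.63), IDI1 (1.84), SQLE (1.15), DHCR7 (1.23), SREBF2 (1.43) and INSIG1 (1.31) were past that p. These are 6 of 8 members, all higher, and 39.8% of all tested genes were past it in the same direction. 0 of the 8 were called, with a smallest limma adjusted p of 0.0778, and the median of the members was 1.27 against 0.83 over all genes. Within the libraries with many transcripts without a strand, HeatShock 3 minus the mean of Control 1 and Control 2 gave a median of −0.18 over the members and −0.20 over all tested genes. Within those with few, the mean of HeatShock 1 and HeatShock 2 minus Control 3 gave 1.06 over the members and 0.62 over all tested genes. These within-class values rest on 3 libraries each and have no test. The medians over all tested genes include low genes, whose changes this scale understates. Medians over abundant genes alone were not taken for the comparisons of this paragraph.

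**Figure D2:**
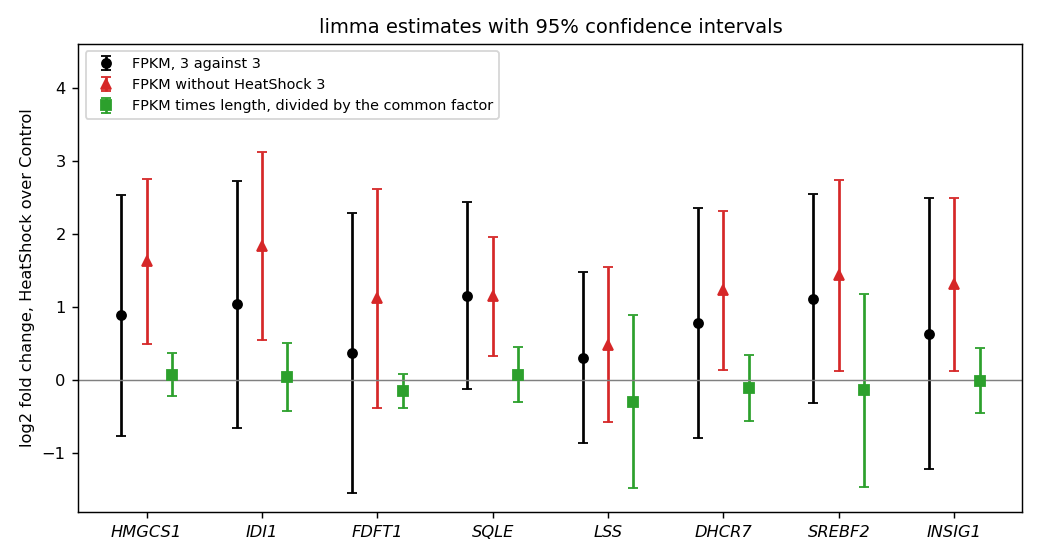
Log2 fold change of HeatShock over Control with its 95% confidence interval for each gene, from limma on all 6 libraries (black), without HeatShock 3 (red) and on FPKM times length divided by the common factor (green). The black intervals all hold 0, 6 of the 8 red ones do not, and the green points lie between −0.29 and 0.08.

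The deposited FPKM of abundant genes moved up and down together between libraries. A common factor, the median ratio of a library to the geometric mean of all 6 over the 998 genes above 10 FPKM in every library, was 0.937, 0.434 and 0.956 in the control libraries and 2.13, 2.31 and 0.487 in the heat shock libraries. Over the 6 libraries, which share this factor by construction, the Pearson correlation of log2(FPKM + 1) with the log2 factor was 0.984 for HMGCS1, 0.981 for INSIG1, 0.967 for DHCR7, 0.948 for IDI1, 0.947 for FDFT1, 0.775 for LSS, 0.738 for SREBF2 and 0.482 for SQLE. These are descriptions over 6 points. The genes most like the mean profile of the 8 members were TRABD (Pearson r 0.9987), GNPAT (0.9985), MRPL50 (0.9975), PI4KB (0.9970) and CCT4 (0.9968), out of 2931 other genes averaging 10 FPKM or more, of which 63.4% had an r over 0.9.

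After division by the common factor, HMGCS1 was at 7.47, 9.23 and 10.3 in the control libraries and 9.06, 11.2 and 8.27 in the heat shock libraries. HeatShock 3 then lay within the range of the controls, and the highest value was 1.499 times the lowest, against 6.47 times for the undivided FPKM. The same division widened SQLE, from 2.64 to 5.09 times between lowest and highest, with HeatShock 3 at 25.9 (scaled) and the remaining libraries at 5.10 to 11.01, and LSS, from 3.41 to 3.78 times. For INSIG1 the scaled values were 23.9, 28.5 and 23.9 in the control libraries and 18.4, 25.0 and 22.4 in the heat shock libraries. 0 of the 8 members had groups that did not overlap on this scale, where 7.3% of all tested genes did. The median difference of the members was 0.02 (log2) and that of all tested genes −0.21.

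Transcript length was then taken in as well, by dividing FPKM times length by the common factor of those values, from 902 genes. HMGCS1 was then at 7.27, 7.86 and 7.89 in the control libraries and 8.12, 9.16 and 7.29 in the heat shock libraries. SQLE was at 5.80, 6.24 and 5.14 in the control libraries and 5.71, 5.41 and 7.21 in the heat shock libraries. FDFT1 was at 17.2, 15.8 and 16.2 in the control libraries and 14.1, 16.3 and 13.8 in the heat shock libraries. The log2 differences and their 95% confidence intervals were 0.08 (−0.21 to 0.37) for HMGCS1, 0.08 (−0.30 to 0.45) for SQLE, −0.15 (−0.38 to 0.09) for FDFT1, 0.05 (−0.42 to 0.51) for IDI1, −0.10 (−0.55 to 0.35) for DHCR7 and −0.0047 (−0.45 to 0.44) for INSIG1. LSS at −0.29 (−1.47 to 0.89) and SREBF2 at −0.13 (−1.46 to 1.19) had wider intervals. 0 of the 8 members were past an unadjusted limma p of 0.05 on this scale, against 2.64% of 12342 genes tested, the smallest limma adjusted p was 0.880, and the median was −0.05 against −0.17 over all genes. On this scale, which was added after seeing the data, a log2 difference of 1 lay outside the intervals of HMGCS1, SQLE, FDFT1, IDI1, DHCR7 and INSIG1. As 1 is added to each value before the log, a 2-fold change gives a difference somewhat below 1. With the common factor alone, which was planned, the intervals of SQLE and IDI1 reached 1.96 and 1.02 and so held 1. Those of HMGCS1, FDFT1, DHCR7 and INSIG1 did not. The factor assumes that abundant genes as a whole did not change, which these files cannot test. A median over abundant genes alone was not taken on either scaled set of values.

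The groups stood apart for the heat shock genes on the scaled values. DNAJB1 was at 7.81, 11.2 and 9.60 in the control libraries and 56.8, 50.2 and 69.8 in the heat shock libraries after division by the common factor. HSPA1B, an inducible HSP70, was at 9.22, 15.2 and 9.99 in the control libraries and 40.6, 43.2 and 47.1 in the heat shock libraries, and HSPA1A, its near-identical copy, which shares reads with it, was at 5.33, 7.82 and 5.04 and at 14.1, 13.6 and 14.1. All 5 heat shock genes of the list (DNAJB1, HSPA1A, HSPA1B, HSPH1 and HSPA8) had every heat shock library above every control on this scale. Of all tested genes, 7.3% had groups that did not overlap there, in either direction. On the undivided FPKM 3 of the 5 did so, against 3.75% of all tested genes. None of the 5 was called after adjustment, and 3 of the 5 were past an unadjusted limma p of 0.05 on FPKM, against 3.7% of all tested genes. The limma log2 difference of DNAJB1 was 3.33 (SE 0.84, adjusted p = 0.709) on FPKM and 2.51 (SE 0.19, adjusted p = 0.128) with the common factor.

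**Figure D3:**
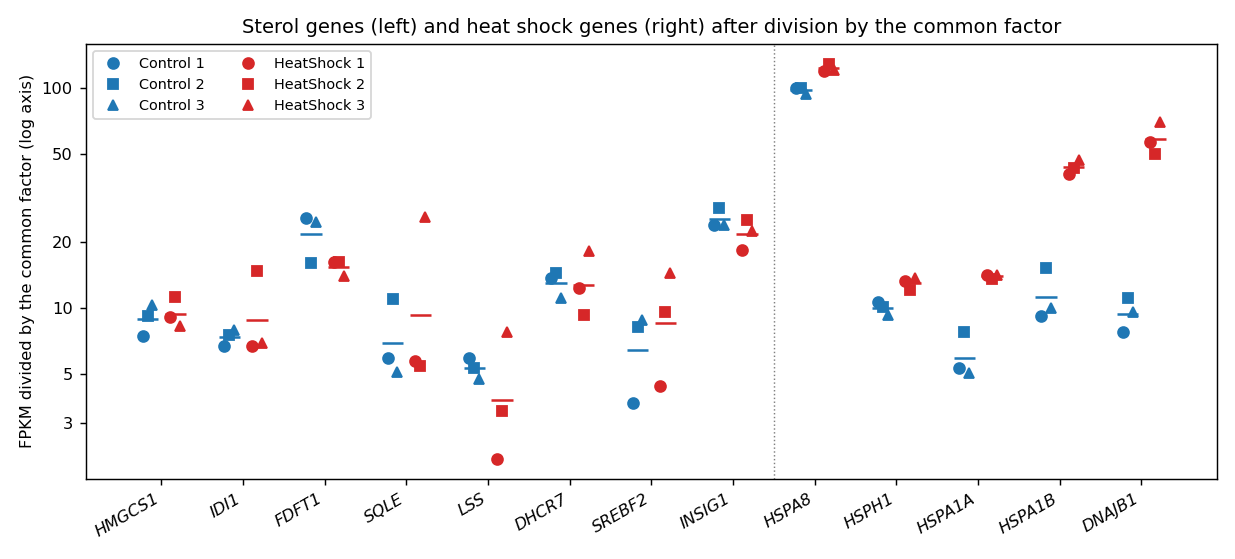
FPKM divided by the common factor on a log axis, for the 8 sterol genes and, right of the dotted line, 5 heat shock genes, in each library (Control blue, HeatShock red, lines at geometric means, n = 3). The groups overlap for each sterol gene and stand apart for each heat shock gene, with DNAJB1 at 7.81 to 11.2 in Control and 50.2 to 69.8 in HeatShock.

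A ratio within a library does not depend on such a factor. Relative to the geometric mean of the 8 members, the log2 ratio of INSIG1 was 1.36, 1.37 and 1.23 in the control libraries and 1.26, 1.30 and 0.76 in the heat shock libraries. FDFT1 was at 1.47, 0.53 and 1.28 against 1.08, 0.68 and 0.08, and LSS at −0.65, −1.05 and −1.10 against −1.89, −1.57 and −0.77. None of the 8 members had groups that did not overlap, whereas 7.35% of 11677 genes did when set against the same mean. The smallest p of the exact permutation test (two-sided, 3 against 3) was 0.3, for INSIG1, FDFT1 and LSS (adjusted p = 0.8 over the 8), and the design cannot give less than 0.1. SQLE relative to the others was highest in HeatShock 3, at 0.97, and between −0.99 and −0.003 in the 5 remaining libraries.

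Where along the gene the assembled transcripts lay also differed between libraries. For INSIG1 the transcripts over the first 300 nt of the annotated transcript summed to 4.81, 1.49 and 0 FPKM in the control libraries and to 38.7, 57.2 and 2.67 FPKM in the heat shock libraries, while over the last 300 nt they summed to 22.3, 12.4 and 22.8 FPKM and to 39.1, 57.8 and 10.9 FPKM. The 5′ end of INSIG1 was thus low in all 3 control libraries and in HeatShock 3. HMGCS1 had more at its 3′ end than at its 5′ end in every library, by 1.49, 3.84 and 5.84 times in the control libraries and 3.54, 4.51 and 11.6 times in the heat shock libraries. SREBF2 had the opposite order in Control 3, HeatShock 1 and HeatShock 3, with ratios of 3′ to 5′ of 0.540, 0.153 and 0.492, since transcripts that end within the gene began at its annotated start there. In HeatShock 2 such a transcript of 4 exons and 1129 nt was at 10.2 FPKM (interval given by Cufflinks 8.16 to 12.3). For IDI1 the ends were nearly equal in all 6 libraries, at 1.00 to 1.29 times.

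**Figure D4:**
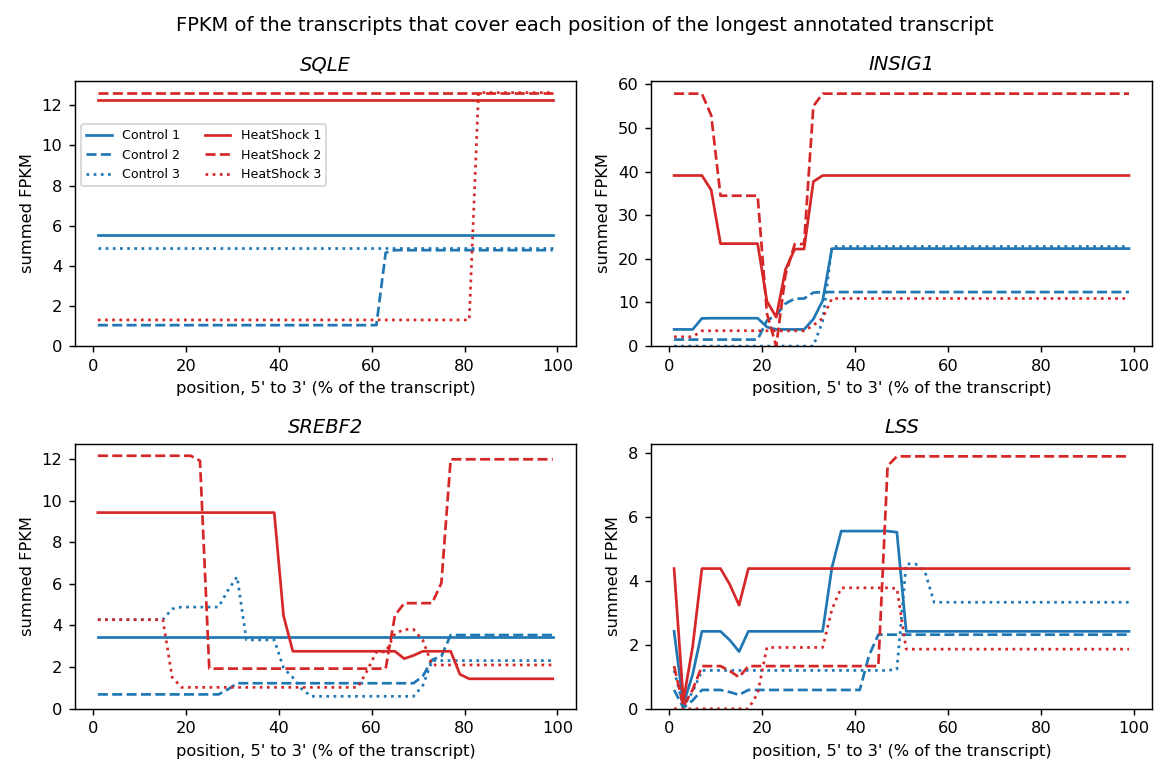
Summed FPKM of the assembled and annotated transcripts that cover each position of the longest annotated transcript, from 5′ to 3′ in percent of its length, for SQLE, INSIG1, SREBF2 and LSS in Control (blue) and HeatShock (red). For SQLE the line of HeatShock 3 is at 1.30 FPKM until the last stretch, where it reaches 12.6 FPKM, and for INSIG1 the 5′ part is high in HeatShock 1 and HeatShock 2 alone.

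Transcripts without a strand were also assembled inside the introns of the member genes. There were 34, 51 and 11 of them in Control 1, 2 and 3 and 7, 8 and 48 in HeatShock 1, 2 and 3, and their FPKM times length came to 23.5%, 56.6% and 13.8% of that of the 8 genes in the control libraries and to 5.93%, 7.18% and 58.8% in the heat shock libraries. By their number, the libraries had the same order as by all transcripts without a strand. The common factor was lowest in Control 2 and HeatShock 3, the libraries with the highest shares. SREBF2 held 18, 36 and 4 in the control libraries and 3, 3 and 27 in the heat shock libraries. LSS held 12, 11 and 7 in the control libraries and 0, 2 and 13 in the heat shock libraries. IDI1 and SQLE held 0 in every library. The part of these transcripts in the differences of the members was not tested beyond the fit with a term for the libraries that held many, in which the median of the members was 0.46 against 0.21 over all genes. The median over abundant genes alone was not taken for that fit.

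**Figure D5:**
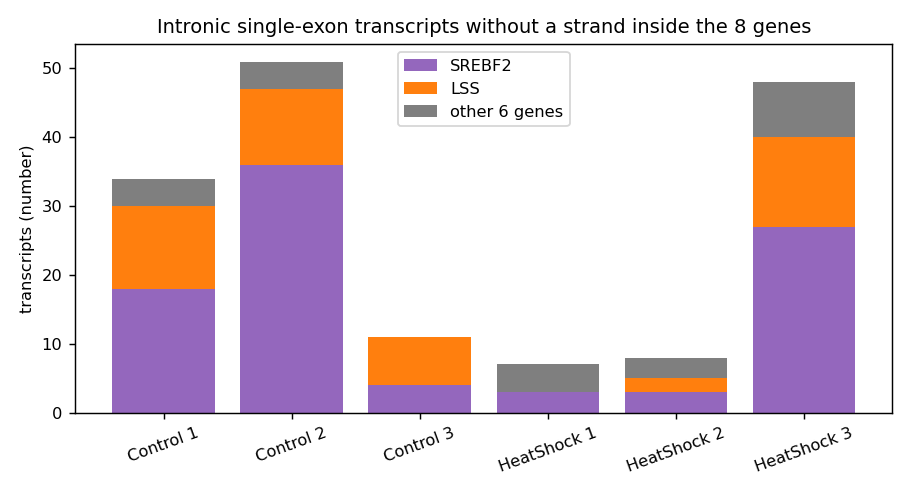
Number of single-exon transcripts without a strand inside introns of the 8 genes in each library, stacked as SREBF2, LSS and the other 6 genes. Control 2 (51) and HeatShock 3 (48) held the most, and HeatShock 1 (7) and HeatShock 2 (8) the fewest.

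The deposited table of merged loci gives 1 pooled FPKM for each group, with no replicate error. The authors' pooled values for Control and HeatShock were 7.68 and 37.3 for HMGCS1, 10.9 and 51.9 for IDI1, 17.8 and 76.8 for FDFT1, 5.76 and 26.2 for SQLE, 2.84 and 10.0 for LSS, 10.8 and 49.4 for DHCR7, 3.99 and 11.9 for SREBF2 and 21.0 and 102 for INSIG1. The pooled heat shock value was above that of every heat shock library in the assemblies for 7 of the 8 genes, all but SREBF2. The pooled control value lay within the range of the 3 control libraries for 6 of the 8, all but SQLE and IDI1. The merged loci and the per-library assemblies were quantified in separate runs, so these values are set side by side and were not tested against each other.

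The other genes of the pathway did not pass the adjusted test either. Of 15 other enzymes of the mevalonate and sterol route, 13 were tested with limma, 0 were called, 1 was past an unadjusted p of 0.05 (GGPS1, higher) and all 13 differences were positive, with a median of 0.55. GGPS1 makes geranylgeranyl diphosphate on a branch that does not lead to sterols, so 0 of the sterol enzymes proper in the list were past that p. It was listed at 0 in all 3 control libraries and in HeatShock 1 and at 14.4 and 6.25 FPKM in HeatShock 2 and HeatShock 3. ACAT2 was listed at 0 in every library, and a 0 in these files can be a failed estimate. LBR, a sterol reductase that is also a receptor for lamin B, was at 14.0, 7.39 and 16.7 FPKM in the control libraries and 36.8, 38.6 and 9.85 FPKM in the heat shock libraries. NSDHL, an enzyme that removes methyl groups from sterols, was at 7.09, 5.31 and 6.54 against 13.8, 20.8 and 4.86 FPKM. As in the members other than SQLE, HeatShock 3 was within or below the range of the controls for LBR and NSDHL. With the common factor, the median of these 13 enzymes was −0.18.

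Of the 7 genes of SREBP processing and turnover, all 7 were tested, 0 were called and 0 were past an unadjusted p of 0.05, with a median of 0.71. MBTPS1, the site-1 protease that cuts SREBPs, was at 4.79, 4.81 and 7.16 FPKM in the control libraries and 14.0, 18.3 and 7.14 FPKM in the heat shock libraries. SCAP, the escort of SREBP, was at 6.69, 5.38 and 11.5 against 17.4, 27.5 and 5.11 FPKM. SREBF1, the gene for SREBP-1, was listed at 0 in Control 1, Control 2 and HeatShock 3, at 4.13 FPKM in Control 3 and at 6.67 and 5.89 FPKM in HeatShock 1 and HeatShock 2. With the common factor the median of the 7 was −0.02.

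Of 6 genes of LDL uptake and of the movement of cholesterol inside the cell, 5 were tested, 0 were called and 0 were past an unadjusted p of 0.05, with a median of 0.66, or −0.05 with the common factor. NPC1 and NPC2, the lysosomal proteins that release cholesterol from endocytosed LDL, were at 3.73, 1.77 and 2.90 against 13.4, 4.57 and 1.65 FPKM and at 57.3, 23.6 and 60.8 against 129.6, 139 and 27.8 FPKM. LIPA, the lysosomal acid lipase, was at 9.31, 6.06 and 10.8 against 22.1, 25.6 and 4.48 FPKM. For each of these 3 genes HeatShock 1 and HeatShock 2 lay above every control and HeatShock 3 did not.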

How the data were processed

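Total RNA from 6 HEK293 libraries was analysed (3 Control, 3 HeatShock, grouped by title). The authors used FastQC 0.10.1 for quality control, Trimmomatic 0.3.0 for trimming, TopHat2 for alignment (build hg19) and Cufflinks 2.0.2 for the assembly of each library. The deposited values are FPKM per transcript in each library and, from cuffdiff on merged loci, 1 pooled FPKM per group. The fold changes, p-values and q-values of that table were not used. No read counts are given, so intervals from counts were not made and tests for counts do not apply.

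The FPKM of a gene was summed over its annotated transcripts and the assembled transcripts grouped with them by Cufflinks, ignoring genes of small RNAs when a group held several genes. Strand is as Cufflinks assigned it, and a 0 can be a transcript that was given no expression or one that was not estimated. Of 43536 annotated transcripts, 96.5% were given a symbol. A linear model was fitted to log2(FPKM + 1), a scale that understates changes of low genes, for the 13074 genes averaging 1 FPKM or more (limma 3.58.1, R 4.3.3, eBayes with a trend, Benjamini-Hochberg adjustment over all of them). The script was tested on simulated data. Alternatives changed the pseudocount, the scaling, the filter, the trend, the transcripts summed, the pairing and the libraries. FPKM times length, the fit without grouped transcripts, the term for unstranded transcripts and the common factor without HeatShock 3 were added after seeing the data.

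The 8 members, the other lists and the motifs were chosen with earlier results of these data known. Of each other pathway list, the 3 tested genes with the largest absolute log2 fold change are named, and of the cell type markers all are.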

Additional observations from a re-analysis of the deposited data

How the results depend on the processing

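The 8 members gave 0 calls in all 21 alternatives, though SQLE, LSS and SREBF2 were not tested with a minimum mean of 10 FPKM. The single-member differences kept their sign in 136 of 164 values and changed it in 28, none of them called, and that of HMGCS1 kept it in every alternative. Changing the filter, the trend or the pairing alone leaves a difference as it was. The values from those alternatives count among the 136 but could not have changed sign. With the common factor, with or without the replicate block, the log2 differences were −0.21 (INSIG1), −0.46 (FDFT1), −0.36 (LSS) and −0.025 (DHCR7), with a median of 0.024 over the members. With FPKM times length and the common factor they were −0.0047 (INSIG1), −0.15 (FDFT1), −0.29 (LSS), −0.13 (SREBF2) and −0.10 (DHCR7), median −0.054. With the common factor without HeatShock 3 they were −0.27 (SQLE), −0.22 (INSIG1), −0.39 (FDFT1), −0.79 (LSS) and −0.25 (DHCR7), median −0.24. Rescaling to TPM gave −0.045 (INSIG1), −0.31 (FDFT1) and −0.26 (LSS), and median-of-ratios scaling −0.052 (FDFT1) and −0.038 (LSS). Annotated transcripts alone gave −0.55 (IDI1) and −0.20 (SREBF2), raised INSIG1 to 2.74 and FDFT1 to 1.20, and left LSS untested, and the term for unstranded transcripts −0.13 (FDFT1). Without 1 library, FDFT1 ran from −0.18 to 1.12. The median of the members then ran from 0.38 (without HeatShock 2) to 1.27 (without HeatShock 3).

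The number of members past an unadjusted p of 0.05 was 0. It was 1 (SQLE, higher) with no minimum FPKM, no trend or the term for unstranded transcripts. Of all genes, 291 of 21764, 257 of 13074 and 221 of 13074 were past it and higher there. Annotated transcripts alone gave 1 (INSIG1, higher), beside 252 higher of 7199 genes. The common factor without HeatShock 3 gave 1 (LSS, lower), beside 2807 lower of 13074 genes. Without 1 library the number was 0 to 6, the 6 without HeatShock 3, beside 5209 higher of 13074 genes. Over all genes, the 3 calls became 0 with the common factor, with it and the block, with it and length, with it without HeatShock 3 and with no minimum, 1 with median-of-ratios, TPM, no trend or annotated transcripts, and 0 to 10 without 1 library. The cause of these changes was not tested.

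Same-numbered libraries deviated with correlations of 0.033, −0.328 and −0.382. Differently numbered ones ran from −0.318 (Control 2 with HeatShock 1) to 0.442 (Control 2 with HeatShock 3). With 3 libraries a group, these values cannot show whether replicate numbers pair the libraries. With the replicate block 16 genes (11 higher, 5 lower) were called and 0 members, and 2 members had a ratio to the mean of the 8 that moved one way in all 3 numbers, against 19.1% of all 11677 genes. Without 1 library, 0 to 3 members had ratios that did not overlap, the 3 (HMGCS1, IDI1 and LSS) without HeatShock 3, where 38.4% of all genes did so, against 11% to 19.1% without another library. That ratio had no value with annotated transcripts alone, where members are listed at 0.

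The reads behind each FPKM are unknown here. On undivided FPKM the 95% intervals of the members reached from −1.54 (FDFT1) to 2.73 (IDI1), and each held both negative and positive differences. The smallest change detectable with 3 libraries a group was not tested.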

Other observations

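Genes next to the sterol pathway are given here as values. Of 7 genes of fatty acid synthesis, a route controlled by SREBP-1, all were tested with limma, 0 were called and 0 were past an unadjusted p of 0.05, with a median log2 difference of 0.89, or 0.04 with the common factor. FASN, the fatty acid synthase, was at 17.3, 11.1 and 38.6 FPKM in the control libraries and 148, 60.0 and 8.17 FPKM in the heat shock libraries, so HeatShock 3 lay below every control. With the common factor and transcript length, its log2 difference was −0.31 (limma unadjusted p = 0.0324, adjusted p = 0.880). It was the 1 gene of the 7 past an unadjusted p of 0.05 there, as were 2.64% of all genes tested. With the common factor alone, 1 of the 7 had groups that did not overlap (lower), as for 7.3% of all tested genes. FADS1, a desaturase, was at 8.86, 4.84 and 16.0 against 22.6, 22.0 and 15.1 FPKM, and ACLY, which supplies acetyl-CoA, at 60.4, 18.4 and 29.9 against 58.8, 102 and 37.2 FPKM.

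Of 4 genes of sterol export and of the LXR receptors, 3 were tested and 0 were called. ABCG1, a cholesterol exporter, was at 6.04, 3.79 and 5.40 FPKM in the control libraries and 1.16, 1.88 and 3.49 FPKM in the heat shock libraries, below every control in all 3, with a log2 difference of −0.98 (SE 0.49, limma adjusted p = 0.709), and its groups overlapped after division by the common factor. NR1H3, the gene for LXR alpha, was at 1.23, 1.17 and 1.70 against 8.83, 8.77 and 1.69 FPKM, with an unadjusted p of 0.0236 and a limma adjusted p of 0.709. NR1H2, the gene for LXR beta, was at 4.83, 2.30 and 10.4 against 8.60 and 8.04 FPKM in HeatShock 1 and HeatShock 2, and was listed at 0 in HeatShock 3. After division by the common factor the groups of NR1H3 (higher) and NR1H2 (lower) did not overlap, as for 7.3% of all tested genes. The difference of NR1H3 was 0.74 there (limma unadjusted p = 0.0391) and 0.05 with transcript length taken in as well (limma unadjusted p = 0.887). Those of NR1H2 were −1.45 (limma unadjusted p = 0.0852) and −1.96 (limma unadjusted p = 0.0102, adjusted p = 0.880).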
